A study of Mus musculus with 12 samples.

Results

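The BAF complex, the mammalian form of SWI/SNF, was followed through the mRNA of 10 of its subunits, Smarca4, Smarca2, Smarcb1, Smarcc1, Smarcc2, Smarcd1, Smarcd2, Smarce1, Arid1a and Arid1b, chosen by name from the 25759 genes listed. All 10 were found in each table, lie on 7 autosomes and passed the filter on low counts. The libraries came from HATX3 cells, a mouse embryonic stem cell (ESC) line derived from haploid embryos that had become diploid, in which doxycycline turns on Xist through an nls-rtTA transactivator at Rosa26 and a tetO promoter at the Xist gene. Wild-type HATX3 ESCs (replicates 1, 2 and 3) and the ΔCdk8 clones 8, 11 and 15 were each taken uninduced and after 48 h with doxycycline, which gave 12 libraries in 4 groups of 3. Cdk8 is the kinase of the Mediator kinase module, and its coding start had been deleted with CRISPR/Cas9. Each ΔCdk8 line is 1 clone, and all groups carry the inducible Xist allele. Nothing in the labels says that wild-type replicates were separate cultures, so their p-values measure the spread between these samples.

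BAF complexes use the energy of ATP to slide or evict nucleosomes. One ATPase, SMARCA4 (BRG1) or SMARCA2 (BRM), sits on a core built from SMARCC, SMARCD, SMARCB1 and SMARCE1 subunits, and an ARID1 subunit marks the canonical form and takes part in DNA binding. Several positions can be filled by either of a pair of paralogues, and the ESC form is known for SMARCA4, SMARCC1, SMARCD1 and ARID1A.

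Upstream sequences are shown for the members with the results described most fully, the pair of ATPase genes, which stand at opposite ends of the levels, and Arid1a, which differed between clones. RefSeq windows on GRCm38.p6, from 250 bases before to 50 after a gene's start, matched 9 of the 10 members, and Smarce1 had none. Only the bases before the gene's start in the deposited tables are printed. Capitals mark the letters GGGCGG (GC box), TGCGCA (NRF1 core) and CCGGAA (ETS core) on either strand, with overlaps allowed. The Smarca4 stretch is chr9:21615919-21616168 on the forward strand, that of Smarca2 is chr19:26604910-26605049 on the forward strand, and that of Arid1a is chr4:133756770-133757019 on the reverse strand, each written 5′ to 3′ along the gene.
Smarca4: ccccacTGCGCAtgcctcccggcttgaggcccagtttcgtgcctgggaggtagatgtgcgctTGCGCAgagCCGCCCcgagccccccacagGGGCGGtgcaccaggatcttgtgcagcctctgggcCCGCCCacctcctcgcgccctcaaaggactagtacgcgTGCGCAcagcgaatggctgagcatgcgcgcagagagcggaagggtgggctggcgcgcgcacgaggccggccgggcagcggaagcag
Smarca2: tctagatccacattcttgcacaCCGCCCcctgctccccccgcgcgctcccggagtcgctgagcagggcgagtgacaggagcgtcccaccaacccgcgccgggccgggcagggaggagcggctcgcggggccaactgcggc
Arid1a: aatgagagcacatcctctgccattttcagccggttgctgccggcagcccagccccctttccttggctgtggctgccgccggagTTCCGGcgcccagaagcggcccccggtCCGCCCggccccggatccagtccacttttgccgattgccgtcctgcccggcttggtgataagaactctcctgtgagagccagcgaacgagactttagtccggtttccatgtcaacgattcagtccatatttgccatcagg
The Smarca4 stretch held 3 GC boxes and 3 NRF1 cores, that of Smarca2 held 1 GC box in 140 bases, and that of Arid1a held 1 GC box and 1 ETS core. Over the full windows of 300 bases, GGGCGG was present for 9 of the 9 matched members and in 35.7% of all 32851 windows. TGCGCA was present for 3 of 9 and in 7.76% of windows, CCGGAA for 4 of 9 and in 14.9%, and CCAAT for 0 of 9 and in 37.4%. TATAAA, which was found for Smarcd2 alone among the 9, occurred in 13.6% of windows. The windows of 8 of the 9 held at least 22 CG dinucleotides, against 23.1% of all windows, and Smarcd2 held 4. The RefSeq starts of Smarcc1 and Smarcd2 lie 14316 and 5340 bases from the gene ends in the tables, so their windows may belong to other transcript starts. A match of letters is a description and not a bound site. Thus the abundant and the scarce ATPase gene both had CG-rich upstream stretches with a GC box.

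Gene reads per library ranged from 22170087 to 60798578. The 10 ESC markers examined, Pou5f1 and Nanog among them, had a mean TPM of at least 1 in each group. Of 7 fibroblast markers, 1 reached that level in wild type and 3 in ΔCdk8, and their summed level was 5.7 to 17.8 TPM over wild-type and 19.8 to 32.4 TPM over ΔCdk8 libraries, with Lum at 0 in induced wild type. Summed mesoderm markers were at 1.76 to 5.66 and 5.05 to 14.7 TPM in the same genotypes and overlapped, as did neural (58.5 to 171 TPM over the 12 libraries) and primitive endoderm markers (2.73 to 8.87 TPM). Their part in the genotype differences given here was not tested. Cdk8 was at 64.2 to 74.2 TPM in uninduced wild-type libraries, at 34.4 and 56.8 TPM in uninduced clones 8 and 11, and at 85.3 TPM in the library labelled clone 15. In induced libraries it was at 51.5 to 53.1 TPM in wild type, and at 33.4, 57.8 and 84.9 TPM in the libraries labelled clone 8, clone 11 and clone 15. The deletion takes away only a short stretch around the start codon, so reads from the remaining exons are still counted. The study also measured Cdk8 transcript with primers beyond that stretch, so a lower level could have been a check. Both libraries labelled clone 15 and the induced library labelled clone 11 lay above the wild-type libraries of their condition and went against it. The study checked its clones by immunoblot for the protein and by sequencing the locus, where a clone carried a small insertion, and neither can be repeated from these counts. Clone numbers are used below as the labels give them. Without the library labelled clone 15, the log2 fold change between genotypes was -0.51 for Smarcd1 and -0.50 for Arid1a uninduced, and -0.62 for Smarcd1, -0.64 for Arid1a and -1.90 for Smarca2 induced, and 0 members passed the threshold. Libraries also differed in how GC-rich transcripts were represented. Relative to the uninduced wild-type mean, the median of the sixth of genes with the highest GC content ran from 0.738 in the induced library labelled clone 15 to 1.22 in induced wild type 2. The median ratio of genes with like transcript GC content is therefore given beside Smarca4, Smarca2, Smarcb1, Smarcd1, Smarcd2 and Arid1a.

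Levels are given in TPM (transcript share scaled to a common total), which divides exon reads by exon length, so that genes can be set side by side. In uninduced wild-type ESCs the members ran from 232 ± 38.9 TPM (SD, n = 3) for Smarcd1 to 0.654 ± 0.0894 TPM (SD, n = 3) for Smarca2. Smarcd1 stood at the 97.5th percentile of all listed genes and Smarca2 at the 52.2nd. The order was Smarcd1, Smarcc1, Smarcb1, Smarca4, Smarce1, Arid1a, Smarcd2, Smarcc2, Arid1b and Smarca2. Ranges overlapped between Smarcd1 and Smarcc1, Smarcb1 and Smarca4, Smarca4 and Smarce1, and Smarce1 and Arid1a, and the other neighbours were apart. Within libraries, however, the first 3 of these overlapping pairs kept their order in 3 of 3 uninduced wild-type libraries, and Smarce1 lay above Arid1a in 2 of 3. By group mean, the first 4, the last 3 and Smarcd2 held the same ranks in the 4 groups. In both ΔCdk8 groups, however, the ranges of Arid1a and Smarcd2 overlapped, and Arid1a lay above Smarcd2 in only 1 of 3 libraries. In the uninduced clones 8 and 15 Smarcd2 was at 65.8 and 62 TPM, above Arid1a at 42.3 and 44.9 TPM. Smarce1 and Arid1a exchanged ranks in induced wild type, where their ranges also overlapped.

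**Figure D1:**
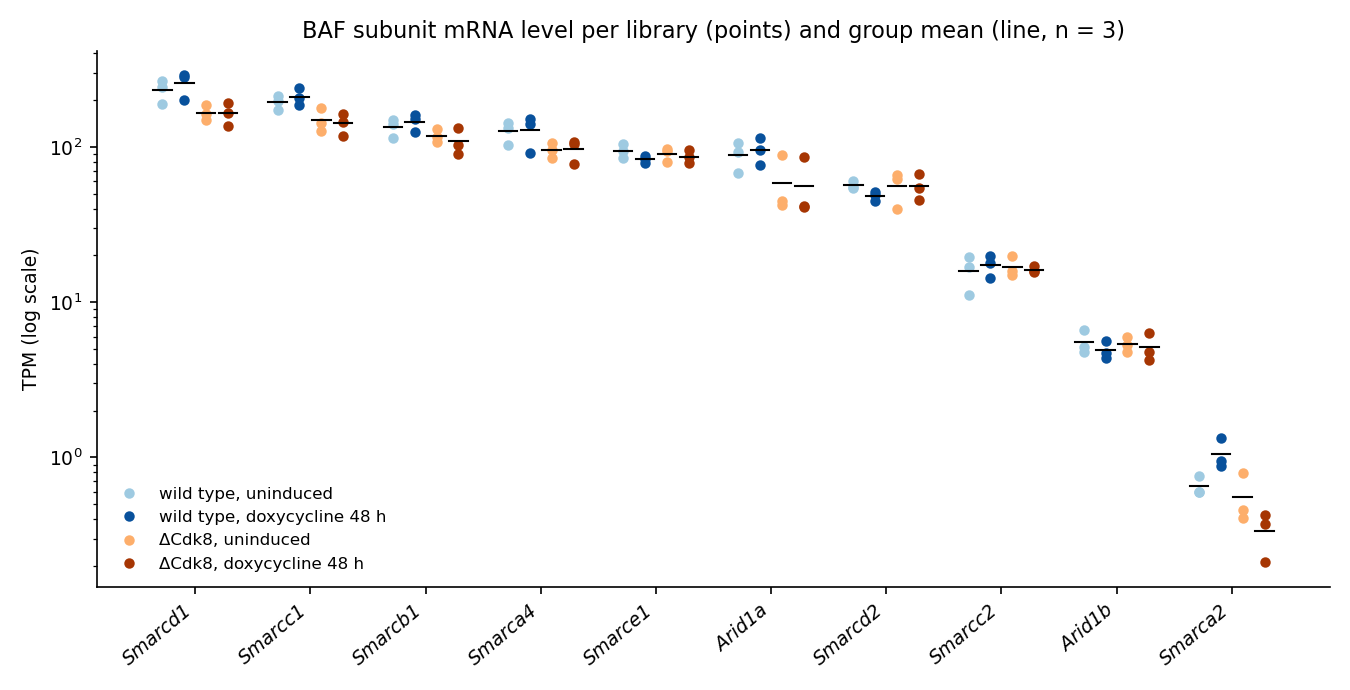
TPM of the 10 BAF subunits on a log axis, each point 1 library and each short line a group mean (n = 3), in the order of uninduced wild type. Smarcd1 leads at 232 TPM on average, Smarca2 is at 0.654 TPM, and the subunits of each paralogue pair are clearly separated in level.

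The ATPase gene of the ESC complex, Smarca4 (ENSMUSG00000032187, chr9:21616169-21704230), was at 103, 133 and 142 TPM in uninduced wild type 1, 2 and 3. In the uninduced clones 8, 11 and 15 it was at 95.8, 106 and 84.5 TPM. The 2 groups overlapped only in that wild type 1 lay below clone 11. After induction Smarca4 was at 91.5, 141 and 152 TPM in wild type and at 105, 107 and 77.6 TPM in the clones. Its uninduced ΔCdk8 to wild-type log2 fold change was -0.53 (SE 0.20, unadjusted p = 0.0281, edgeR adjusted p = 0.208). In induced cells the log2 fold change was -0.55 (SE 0.27, edgeR adjusted p = 0.231). Relative to the uninduced wild-type mean, the uninduced clones were at 0.762, 0.843 and 0.672, while genes of like GC content, around 55.9%, had medians of 1.05, 0.984 and 0.952. Neither fold change passed the threshold, which asked for more than a 2-fold change and an adjusted p below 0.01.

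Smarca2 (ENSMUSG00000024921, chr19:26605050-26778322), the alternative ATPase gene, was read at a low level, with 40 to 192 gene reads per library. Uninduced wild type 1, 2 and 3 had 0.603, 0.602 and 0.758 TPM, and the same replicates after induction had 0.875, 0.945 and 1.33 TPM. All 3 induced wild-type libraries lay above the uninduced ones. The uninduced clones 8, 11 and 15 had 0.456, 0.41 and 0.794 TPM, and the induced ones 0.211, 0.375 and 0.428 TPM. Each clone was lower with doxycycline, although the groups overlapped, and each induced clone lay below every induced wild-type library. The ratio of induced to uninduced TPM was 1.45, 1.57 and 1.76 in wild type and 0.463, 0.913 and 0.54 in the clones.

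Reads that span exon junctions of Smarca2 showed the same order of groups. There were 26, 38 and 78 of them in uninduced and 63, 41 and 96 in induced wild type, or 0.825 to 1.3 and 1.85 to 2.27 per 1000000 gene reads. In the clones they numbered 37, 31 and 55 uninduced and 24, 21 and 12 induced, or 0.625 to 1.27 and 0.395 to 0.691 per 1000000. Clone 11 was the exception among the clones, with 0.676 per 1000000 uninduced and 0.691 induced, while clones 8 and 15 were lower when induced.

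With induction in wild type the log2 fold change of Smarca2 was 0.75 (SE 0.29, unadjusted p = 0.0357, edgeR adjusted p = 0.201), and 0.73 (SE 0.21, edgeR adjusted p = 0.059) when replicates entered as a block. In ΔCdk8 it was -0.66 (SE 0.44, edgeR adjusted p = 1) and -0.69 (SE 0.29, edgeR adjusted p = 0.134) with the clone as a block. The interaction, the change in ΔCdk8 less that in wild type, was -1.39 (SE 0.51, unadjusted p = 0.0199, edgeR adjusted p = 1). With the block the interaction was -1.40 (SE 0.36, edgeR adjusted p = 0.0501). Over the other alternatives, its adjusted p ran from 0.0453 to 1. In TPM the 3 wild-type pairs and the 3 clones thus moved in opposite directions, which junction reads showed for 5 of the 6, and the difference did not pass the threshold. Without the uninduced or the induced library labelled clone 15, the interaction of Smarca2 was -1.12 or -1.55.

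Between induced ΔCdk8 and induced wild-type cells Smarca2 had the largest fold change of the members. The log2 fold change was -1.79 (SE 0.43, edgeR adjusted p = 0.0733), a level 0.289 times that of wild type. The DESeq2 Wald test gave -1.82 (SE 0.46, adjusted p = 0.00163), which is past the threshold, and other alternatives that kept all 6 libraries gave an adjusted p of up to 0.0757. Leaving out 1 library at a time gave adjusted p-values of 0.0365 to 0.315 with edgeR. In uninduced cells the log2 fold change was -0.38 (SE 0.37, edgeR adjusted p = 0.551). Genes of like GC content, around 51.1%, had median ratios between 0.935 and 1.06 over the 12 libraries, against 0.323 to 2.04 for Smarca2.

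**Figure D2:**
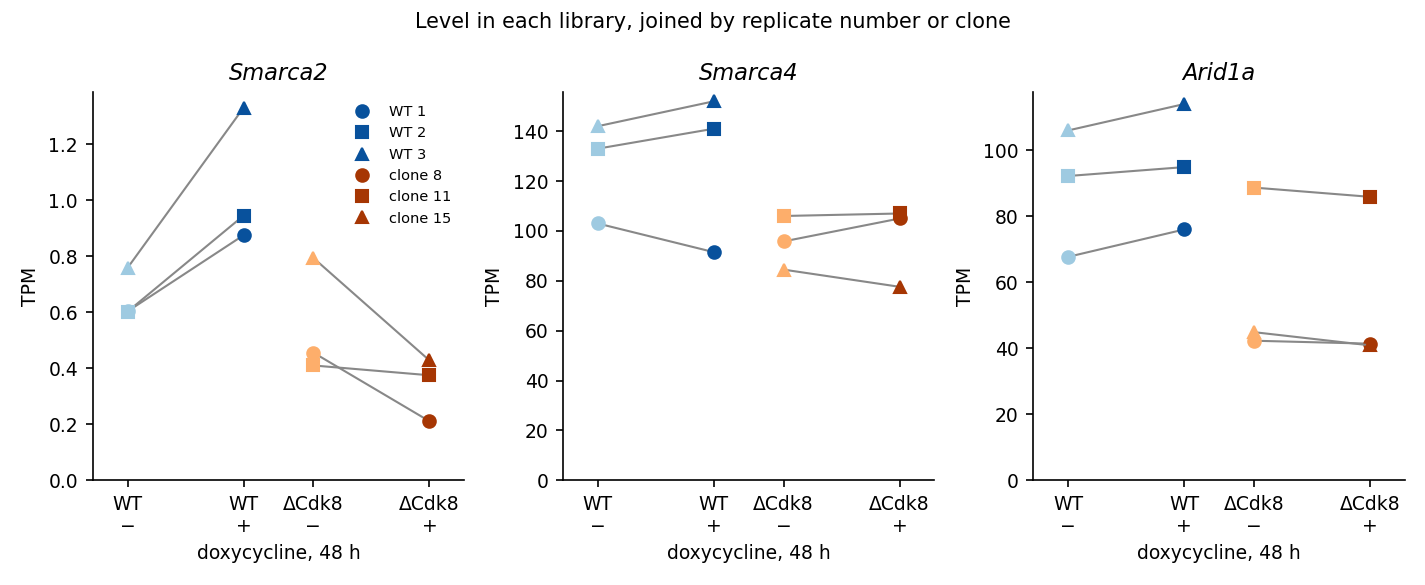
TPM of Smarca2, Smarca4 and Arid1a in each library without (-) and with (+) doxycycline, lines joining libraries of 1 replicate number or clone. Smarca2 is higher with doxycycline in the 3 wild-type pairs and lower in the 3 clones, and Arid1a keeps its level within each clone while clones 8 and 15 lie near 41 to 45 TPM and clone 11 near 86 to 89 TPM.

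Among the core genes, Smarcd1 (ENSMUSG00000023018, chr15:99702287-99713995), whose product BAF60A is held to link the complex to transcription factors, separated the genotypes. Uninduced wild-type libraries had 189, 264 and 242 TPM, and the uninduced clones 8, 11 and 15 had 162, 185 and 150 TPM. Induced wild-type libraries had 200, 290 and 282 TPM, and the induced clones 166, 191 and 136 TPM. In each condition the clones lay below all wild-type libraries, in the uninduced cells by a narrow margin of clone 11 to wild type 1. The log2 fold change was -0.63 (SE 0.20, unadjusted p = 0.0157, edgeR adjusted p = 0.178) uninduced and -0.80 (SE 0.26, unadjusted p = 0.0144, edgeR adjusted p = 0.114) induced. The median ratio of genes with like GC content, around 57.2%, was 0.927 to 1.08 in the uninduced clones, where Smarcd1 was at 0.648 to 0.798 of the wild-type mean. After a correction for GC content the log2 fold changes were -0.58 (edgeR adjusted p = 0.132) and -0.66 (edgeR adjusted p = 0.0511).

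Smarcc1 (ENSMUSG00000032481, chr9:110117708-110240178) encodes the scaffold subunit BAF155. It was at 173, 199 and 212 TPM in uninduced wild type and at 127, 178 and 143 TPM in the uninduced clones, where clone 11 lay above wild type 1. In induced cells it was at 187, 208 and 238 TPM in wild type and at 118, 163 and 145 TPM in the clones, and the groups no longer overlapped. The log2 fold change was -0.51 (SE 0.20, edgeR adjusted p = 0.226) uninduced and -0.72 (SE 0.21, edgeR adjusted p = 0.0971) induced. With DESeq2 the induced value was -0.73 (adjusted p = 0.0236), under 0.05 but not past the threshold.

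Smarcb1 (ENSMUSG00000000902, chr10:75896769-75921617), the core subunit lost in rhabdoid tumours, ran from 114 to 148 TPM in uninduced wild type and from 108 to 131 TPM in the uninduced clones. In induced cells its ranges were 125 to 160 and 90.3 to 133 TPM, and the log2 fold change was -0.54 (SE 0.23, edgeR adjusted p = 0.195). The induced clones 8, 11 and 15 were at 0.769, 0.987 and 0.673 of the uninduced wild-type mean, against medians of 1.03, 1 and 0.89 for genes of like GC content, around 55.2%. Smarce1 (ENSMUSG00000037935, chr11:99209047-99231017), an HMG-box subunit, stayed between 78.2 and 104 TPM over the 12 libraries. Its log2 fold change was -0.20 uninduced and -0.08 induced, each within 2 SE of 0. Smarcc2 (ENSMUSG00000025369, chr10:128459248-128490482), which encodes the paralogue BAF170, ran from 11.1 to 19.7 TPM. Smarcd2 (ENSMUSG00000078619, chr11:106263179-106272972), a paralogue of Smarcd1, ran from 40.1 to 67.3 TPM, and both extremes were in clones. The log2 fold changes of Smarcc2 and Smarcd2 between genotypes lay from -0.24 to 0.02, and their groups overlapped. None of these 4 members passed the threshold between genotypes.

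Arid1a (ENSMUSG00000007880, chr4:133679008-133756769, reverse strand), the ARID subunit of the ESC complex, varied between clones. Uninduced wild type 1, 2 and 3 had 67.7, 92.2 and 106 TPM, and the uninduced clones 8, 11 and 15 had 42.3, 88.7 and 44.9 TPM. After induction the values were 76, 94.9 and 114 TPM in wild type and 41.4, 85.9 and 40.9 TPM in the clones. Clone 11 lay within the wild-type range in both conditions, whereas clones 8 and 15 lay below each wild-type library. This split was not particular to Arid1a. Smarca4 and Smarcc1 showed it in uninduced cells and Smarcb1 in induced cells, and its share over all genes was not counted. The largest change within a clone was 1.1-fold, against a 2.1-fold difference between clones in each condition. For the other members that difference between uninduced clones ran from 1.21-fold for Smarcb1 to 1.93-fold for Smarca2, and between induced clones it reached 2.03-fold for Smarca2.

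The log2 fold change of Arid1a over the 3 clones was -0.71 (SE 0.36, edgeR adjusted p = 0.297) uninduced and -0.89 (SE 0.37, edgeR adjusted p = 0.184) induced. Without clone 11 the values were -1.27 (edgeR adjusted p = 0.0291) and -1.45 (edgeR adjusted p = 0.0172), which still missed the threshold. Junction reads gave the same picture, with 39.1, 89.3 and 41.4 per 1000000 gene reads in the uninduced clones 8, 11 and 15 and 68.8, 93 and 101 in wild type. Intron reads of Arid1a were 3.71, 6.31 and 4.31 per 1000000 in those clones and 4.95, 6.09 and 8.52 in wild type. Relative to the uninduced wild-type mean, Arid1a was at 0.476, 0.999 and 0.506 in the 3 clones. The 143 genes within 5 Mb of it had median ratios of 1.09, 0.97 and 1.06, and the 785 genes compared on chromosome 4 had 1.07, 0.972 and 1.14. Genes of like GC content, around 56.7%, had medians of 1.05, 0.985 and 0.929. The lower level in clones 8 and 15 was thus not shared by the neighbouring genes. Its cause was not tested.

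**Figure D3:**
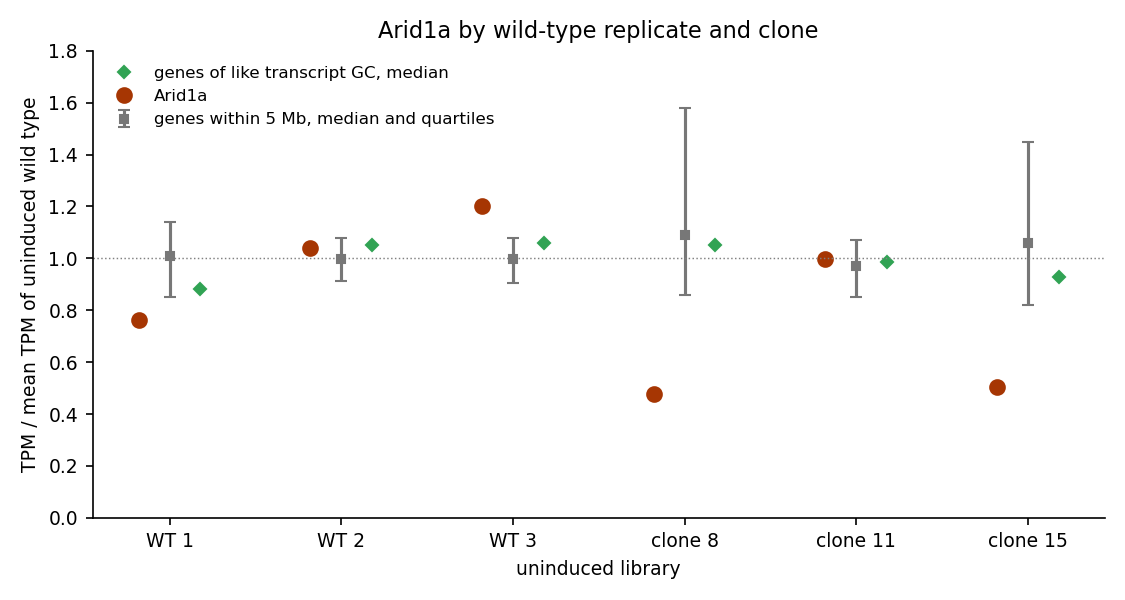
Level of Arid1a in each uninduced library relative to the mean of uninduced wild type (circles), beside the median and quartiles of genes within 5 Mb (squares) and the median of genes with like transcript GC content (diamonds). Clones 8 and 15 are at 0.476 and 0.506, clone 11 is at 0.999, and the medians of both comparison sets lie between 0.883 and 1.09.

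Arid1b (ENSMUSG00000069729, chr17:4994332-5347656), the paralogue of Arid1a, was at 4.77, 5.14 and 6.61 TPM in uninduced wild type and at 4.76, 5.31 and 5.95 TPM in the uninduced clones. In induced cells it was at 4.38 to 5.6 TPM in wild type and 4.25 to 6.36 TPM in the clones. Clones 8 and 15, where Arid1a was low, lay on either side of clone 11 in uninduced cells and below it in induced cells. The log2 fold change between genotypes was -0.16 (SE 0.19) uninduced and -0.08 (SE 0.26) induced.

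Ratios between paralogues were taken within each library. Smarca4 exceeded Smarca2 193 ± 25.7-fold (SD, n = 3) in uninduced and 123 ± 23.2-fold in induced wild type. In ΔCdk8 the ratio was 192 ± 77.6 uninduced and 321 ± 161 induced, with 498, 285 and 181 in the induced clones 8, 11 and 15. The 3 induced wild-type ratios, 104 to 149, lay below these. Since Smarca2 is near or below 1 TPM, these ratios depend on how low values are treated. With 1 added to each TPM the 4 means, in the same order, were 76.5, 62.6, 63.3 and 73.7, which brings the induced groups close to each other. Smarcc1 exceeded Smarcc2 12.8 ± 2.69-fold in uninduced wild type and 9.03 ± 2.45-fold in uninduced ΔCdk8, with overlapping ranges. In induced cells this ratio was 10.6 to 13.4 in wild type and 7.56 to 10.3 in the clones, without overlap. Smarcd1 exceeded Smarcd2 4.08 ± 0.525-fold and 3.16 ± 1.26-fold, and the ranges overlapped in both conditions. Arid1a exceeded Arid1b 14.2-, 18- and 16.1-fold in uninduced wild type and 8.88-, 16.7- and 7.55-fold in the uninduced clones 8, 11 and 15. In induced cells it did so 16.2- to 21.6-fold in wild type and 9.76-, 13.5- and 8.53-fold in the clones, so that clone 11 too was below wild type. In each library the paralogue known from the ESC complex was therefore the more abundant one, by 2.42-fold at the least, for Smarcd1 over Smarcd2.

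**Figure D4:**
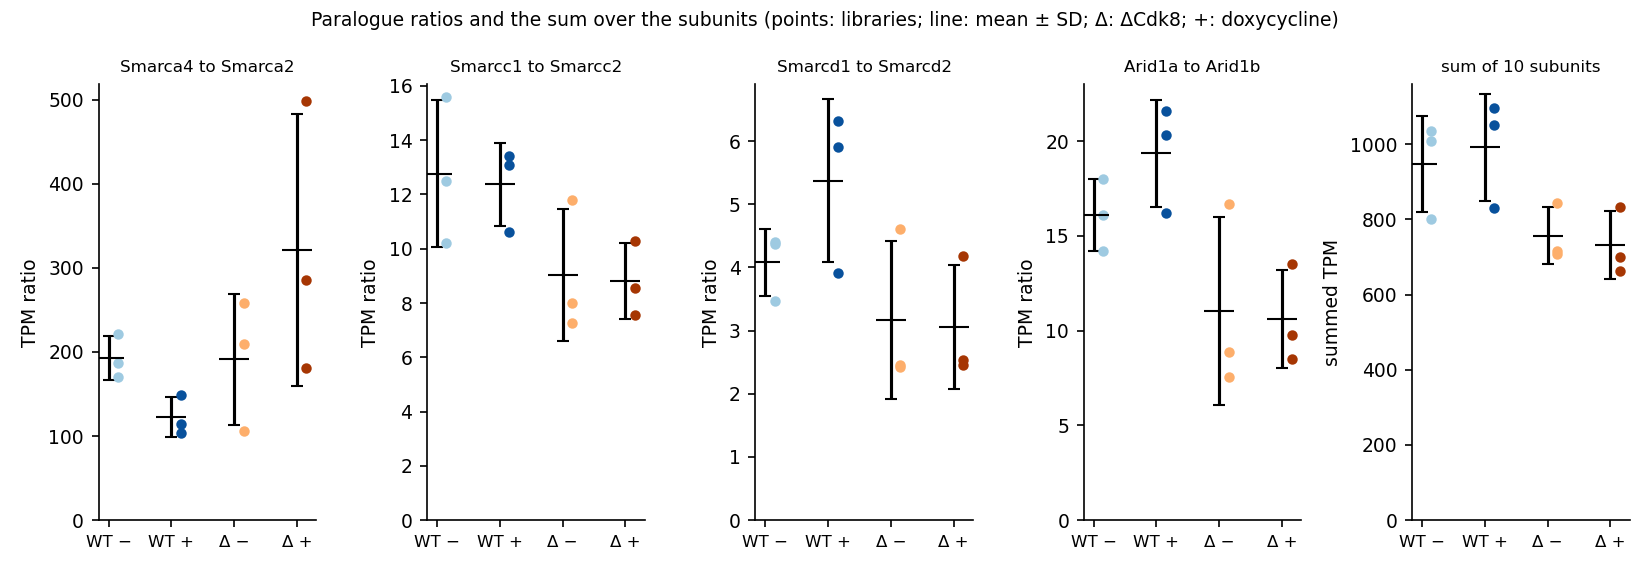
Ratio of TPM for 4 paralogue pairs and the summed TPM of the 10 subunits, for wild type (WT) and ΔCdk8 (Δ) without (-) and with (+) doxycycline; points are libraries and bars the mean ± SD (n = 3). The Smarca4 to Smarca2 ratio is 104 to 149 in induced wild type and 181 to 498 in induced ΔCdk8 (means of 62.6 and 73.7 with 1 added to each TPM), and the sum is 662 to 844 TPM in ΔCdk8.

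Summed over the 10 members, the level was 801, 1009 and 1034 TPM in uninduced wild type and 709, 844 and 717 TPM in the uninduced clones 8, 11 and 15. After induction it was 830, 1051 and 1095 TPM in wild type and 699, 834 and 662 TPM in the clones. The sum in clone 11 lay above that of wild type 1 in both conditions, so the groups overlapped. In bulk RNA, fewer cells of a type and less RNA per cell cannot be told apart.

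Uninduced ΔCdk8 and wild-type cells were compared first, before Xist was turned on. The 10 members had negative log2 fold changes with edgeR, from -0.71 to -0.06 with a median of -0.35. Of all 14646 genes tested 47.9% were below 0, and their median was 0.03. In TPM, however, the mean of Smarcc2 was 16.9 in uninduced ΔCdk8 and 15.8 in uninduced wild type, so its sign depended on the scaling. With edgeR 0 of 10 members passed the threshold, as did 0% of all genes. At an unadjusted p under 0.05, 3 of 10 were lower (Smarca4, Smarcc1 and Smarcd1), against 8.49% of all genes, and DESeq2 called 0 of 10 past the threshold, against 2.64% of all genes. In TPM, 1 of the 9 members with a mean of at least 1 TPM, Smarcd1, was lower without overlap of the groups, against 7.27% of the genes that averaged 1 TPM or more, and 0 were higher without overlap, against 16.3%. No member passed the threshold, although each edgeR log2 fold change lay below the median of all genes.

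In induced cells the same comparison gave log2 fold changes from -1.79 to 0.02 with a median of -0.55, against 0.03 over 14143 genes. The wild-type and ΔCdk8 libraries here are other samples of the same replicates and clones. With edgeR 0 of 10 members passed the threshold, as did 0% of all genes, and 4 were lower at an unadjusted p under 0.05 (Smarca2, Smarcc1, Smarcd1 and Arid1a), against 11% of all genes. DESeq2 called 1 of 10 lower past the threshold, Smarca2, against 1.98% of genes, and 3 of 10 lower at an adjusted p under 0.05, against 6.46%. In TPM, 2 of the same 9 members were lower without overlap, Smarcc1 and Smarcd1, against 10.7% of genes at that level, and 0 were higher, against 18.1%. Smarca2, which averaged less than 1 TPM and has no such share to be set against, was lower without overlap as well.

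**Figure D5:**
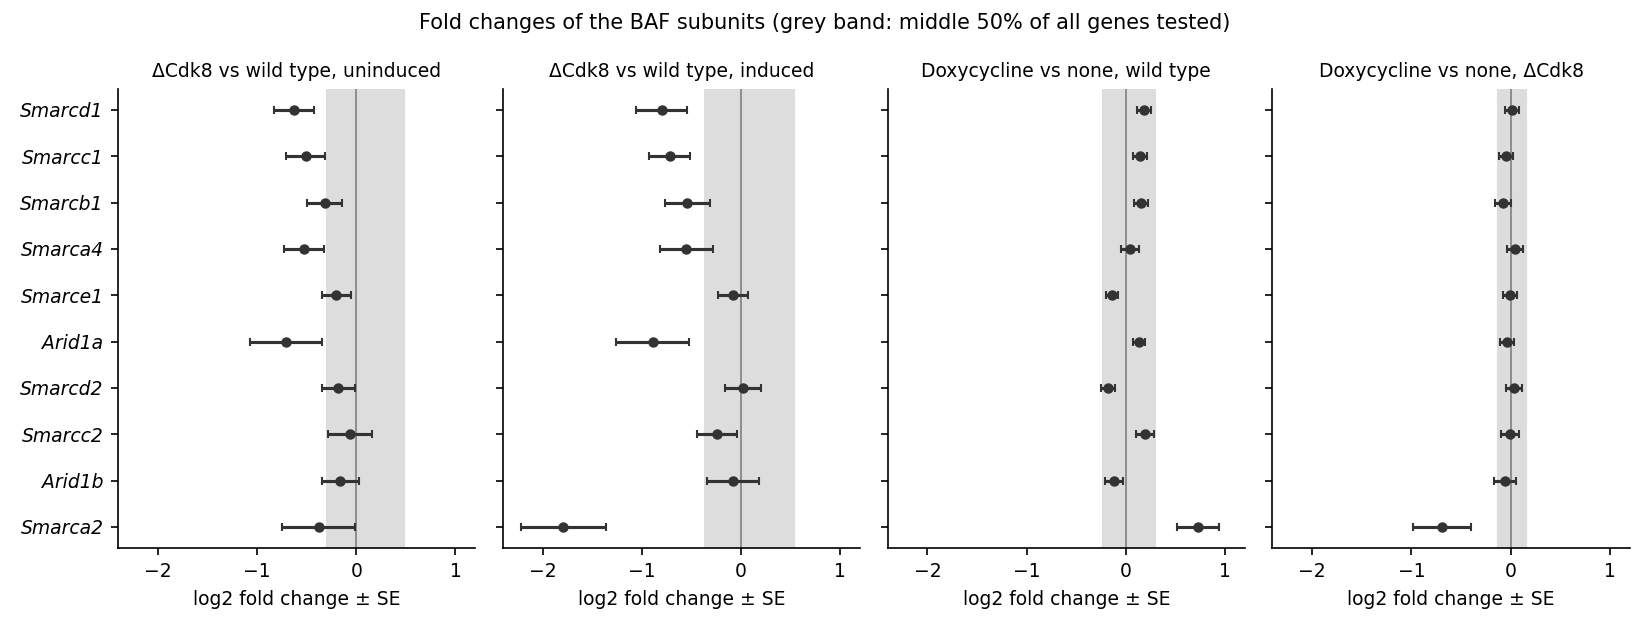
Log2 fold change ± SE of each subunit in 4 comparisons (edgeR, with the replicate or clone as a block in the 2 panels on doxycycline), with a grey band over the middle 50% of all genes tested. The uninduced genotype panel runs from -0.71 for Arid1a to -0.06 for Smarcc2, and with doxycycline Smarca2 stands apart at 0.73 in wild type and -0.69 in ΔCdk8.

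Induced and uninduced wild-type cells were then compared, to follow these autosomal genes when Xist was turned on. Apart from Smarca2, the log2 fold changes lay between -0.18 and 0.20. With edgeR 0 of 10 members passed the threshold, against 1.16% of 14006 genes, DESeq2 called 0 as well, against 4.73%, and 1 was higher at an unadjusted p under 0.05, Smarca2, against 10.8%. With the replicate as a block, 1 was higher, Smarca2, against 21.2%, and 1 was lower, Smarcd2, against 17.7%. Smarcd2 was at 54.3, 60.4 and 55.1 TPM uninduced and at 51.1, 49.2 and 44.6 TPM induced, with a log2 fold change of -0.18 (SE 0.07, edgeR adjusted p = 0.115). Its induced levels were 0.903, 0.87 and 0.788 of the uninduced mean, against medians of 0.861, 1.14 and 1.11 for genes of like GC content, around 56.9%. Of the 9 members with a mean of at least 1 TPM, 0 were higher without overlap of the groups, against 12.7% of genes at that level, and 1 was lower, Smarcd2, against 14.4%. The Smarca2 groups did not overlap either, but its mean was under that level. In all 3 pairs 5 of the 9 were higher and 3 lower, against 30% and 30.1% of genes. With Smarca2, the higher members were Smarcb1, Smarcc1, Smarcc2, Smarcd1 and Arid1a, and for all but Smarca2 the ratio stayed between 1.01 and 1.29. With the GC correction and the block, the median over the members went from 0.14 to 0.03.

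In ΔCdk8 cells, induction left the members other than Smarca2 within -0.06 and 0.04 on the log2 scale. With edgeR 0 of 10 passed the threshold, as did 0% of 14832 genes, 0 had an unadjusted p under 0.05, against 2.64%, and DESeq2 called 0, against 0.243%. With the clone as a block 0 of 10 were lower past the threshold, against 1.27% of genes, and 1 was lower at an unadjusted p under 0.05, Smarca2, against 11.9%. Of the 9 members with a mean of at least 1 TPM, 0 were higher and 0 lower without overlap of the groups, against 1.36% and 3.59% of genes. In all 3 clones 0 of the 9 were higher and 2 lower (Smarce1 and Arid1a), against 18.7% and 26.7%, and Smarca2 was lower too.

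For the interaction of genotype and induction, 0 of 10 members and 0% of 15137 genes passed with edgeR. At an unadjusted p under 0.05 Smarca2 was the 1 member, on the lower side, against 1.2% of genes without the block and 10.5% with it. The other 9 members lay between -0.20 and 0.23. DESeq2 called 0 of 10 past the threshold, against 0.218% of genes.

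The other SWI/SNF subunits, a list of 21 genes, gave a frame for these values. Of them 20 were tested in the genotype comparisons, with a median log2 fold change of -0.21 uninduced and -0.37 induced. With edgeR 0 passed the threshold between genotypes, and DESeq2 called 1 of 20 higher in induced cells, Phf10, against 3.83% of genes. At an unadjusted p under 0.05 in uninduced cells, 3 of 20 were lower (Actb, Bcl11a and Arid2), against 8.49% of genes, and 0 were higher, against 11.9%. In induced cells 4 of 20 were lower (Bcl7b, Actb, Bcl11a and Dpf2), against 11%, and 1 was higher, Phf10, against 14.9%. Smarcd3, the third SMARCD paralogue and known for its part in cardiac and neural BAF, was at 1.82, 2.02 and 1.34 TPM in uninduced and 6.58, 6.07 and 5.92 TPM in induced wild type. Its log2 fold change was 1.92 (SE 0.25, edgeR adjusted p = 0.0107), and with the replicate block it was 1.94 (SE 0.22, edgeR adjusted p = 0.00425), past the threshold. It was the 1 of 20 listed genes higher past the threshold with the block, against 1.47% of all genes. At an adjusted p under 0.05 without the block it was again 1 of 20, against 1.79%. Of the 3 SMARCD genes, the least abundant thus passed with the block and the others did not. Over the other alternatives the adjusted p of Smarcd3 ran from 3.97e-11 to 0.266.

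In the clones 8, 11 and 15 Smarcd3 went from 2.06, 6.37 and 1.28 TPM to 2.74, 12.1 and 1.33 TPM, so that clone 11 stood apart in both conditions. The log2 fold change with the clone as a block was 0.82 (SE 0.19, edgeR adjusted p = 0.00592), under the fold threshold. The interaction with the block was -1.10 (SE 0.27, edgeR adjusted p = 0.0417), but without the block it ranged from -2.36 to 0.15 when 1 library was left out. At an adjusted p under 0.05 with the block, Smarcd3 and Bicral were 2 of 21 on the lower side of the interaction, against 2.45% of genes.

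With the block and an adjusted p under 0.05, 2 of 20 listed genes were higher on induction in wild type (Smarcd3 and Bicral), against 12.2% of genes, and 3 were lower (Bcl11a, Bcl11b and Arid2), against 10.8%. In ΔCdk8, 1 of 21 was higher, Smarcd3, against 5.6%, and 2 were lower (Bcl11a and Arid2), against 6.16%. Bcl11a, which encodes a zinc-finger factor found with BAF, was the 1 of 21 past the threshold there, on the lower side, against 1.27% of genes, with a log2 fold change of -1.66 (SE 0.28, edgeR adjusted p = 0.000404). Without the block the value was -1.75 (SE 1.15, edgeR adjusted p = 1). In wild type Bcl11a was at 1.37, 4.68 and 3.9 TPM uninduced and at 0.297, 2.46 and 1.22 TPM induced, with a log2 fold change of -1.37 (edgeR adjusted p = 0.0175) with the block. In the clones it was at 0.0468, 1.48 and 0.587 TPM uninduced and at 0.0168, 0.419 and 0.0883 TPM induced. These levels rest on few reads, with 12, 60 and 16 gene reads in the induced clones. Its uninduced log2 fold change between genotypes was -2.19 (SE 0.90, edgeR adjusted p = 0.237). Actb, which encodes the actin of the complex and of the cytoskeleton, was at 4193 ± 998 TPM (SD, n = 3) in uninduced wild type and 2425 ± 332 TPM in uninduced ΔCdk8, with a log2 fold change of -0.94 (SE 0.24, edgeR adjusted p = 0.148). Phf10, of the PBAF form, was at 39.9 ± 11.1 and 67.7 ± 25 TPM in the same groups, and its induced log2 fold change was 1.03 (SE 0.23, edgeR adjusted p = 0.067).

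Over the 12 libraries, the genes whose log2(TPM + 1) was most like the mean of the members were Ciapin1 (Pearson's r = 0.975), Mrm3 (0.97) and Cnnm3 (0.968), of 7965 genes compared. The libraries differ in genotype, depth and base composition, so these values are a description.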

How the data were processed

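RNA of 12 libraries was analysed, with groups, replicate numbers and clones from the sample labels. Reads of polyadenylated, stranded libraries were aligned by the authors to Ensembl GRCm38 with CLC Genomics Workbench, and adapters were left untrimmed. They deposited raw counts of reads per gene (total, unique, exon, intron, junction) and TPM values. The TPM equalled length-scaled exon reads in a check. Authors' fold changes were not used.

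Counts were tested with edgeR 4.0.16 in R 4.3.3 (TMM scaling; filterByExpr, minimum count 10 and total 15; quasi-likelihood test with Benjamini-Hochberg adjustment over all genes tested). Calls needed more than a 2-fold change and an adjusted p below 0.01. P-values are two-sided. The SE is the log2 fold change over the square root of F. DESeq2 1.42.0, other scalings, filters and read classes, leaving out each library, and the replicate or clone as a block were alternatives. A correction for transcript GC content was added after seeing the data. With 3 libraries against 3, an exact permutation test cannot go below 0.1, so TPM groups are described without a test. Libraries of 1 clone, or of 1 wild-type number, deviated together (r of at least 0.487, against at most 0.303 for different ones). The numbers thus pair the samples.

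The members, the gene lists and the rule for named genes were chosen with earlier results of these data known. The rule took all members, listed subunits past the threshold, the 4 with the largest uninduced change, and the 3 most like genes. Those 4 were taken among listed subunits with a mean of at least 1 TPM in the uninduced libraries, which left out Bcl11b. Bicral, Bcl11b, Arid2, Bcl7b and Dpf2 are named as the members of small counts. GC content was taken from GENCODE M21 transcripts (GRCm38). The edgeR fits were tested on simulated counts with large known changes and the same spread setting for every gene. No replicate, clone or GC effect was simulated, and DESeq2 and the GC correction were not tested in this way. Values were computed with Python 3.11.15, numpy 2.4.6 and pandas 2.3.3, and drawn with matplotlib 3.10.9.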

Additional observations from a re-analysis of the deposited data

Results flagged for a closer look

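Smarca2 was looked at again because all 3 wild-type pairs were higher and all 3 clones lower with doxycycline in TPM, although junction reads of clone 11 were not lower. The interaction with the replicate or clone as a block was -1.40 on the log2 scale (edgeR adjusted p = 0.0501).

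Arid1a likewise was slightly higher with doxycycline in all 3 wild-type pairs, by 1.03- to 1.12-fold, and slightly lower in all 3 clones, at 0.909 to 0.98 of the uninduced level. Its interaction with the block was -0.16 (edgeR adjusted p = 0.316), and -0.09 with the GC correction.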

How the results depend on the processing

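No alternative that kept every library put a member past the threshold, except that DESeq2 called 1 member, Smarca2, in induced ΔCdk8 against induced wild type, and leaving out 1 library called 0. At an unadjusted p under 0.05 the count was 3 uninduced and 4 induced between genotypes, and 1 each for induction in wild type and for the interaction. The replicate block called 0 members in the comparisons with pairs and changed no other call than those of Smarcd3 and Bcl11a given in the report. With the block and GC correction, Smarca4 with induction in wild type turned to -0.07, and Smarcd1 and Smarcd2 in ΔCdk8 turned to -0.03 and -0.01. The count of members without overlap of the uninduced groups ranged from 1 to 5 when 1 library was left out (5 without wild type 1 or clone 11, 2 without clone 15), which is easier with fewer libraries. With TPM + 1 the Smarca4 to Smarca2 ratio was 76.5, 62.6, 63.3 and 73.7 in uninduced and induced wild type and uninduced and induced ΔCdk8, so that the order of the groups changed, and the Arid1a to Arid1b ratio was 13.7 and 16.2 in wild type. With unique exon reads the sum in uninduced ΔCdk8 was 841, against 756 in TPM, and only in this group did it move by more than the SD. The value of 841 is on another scale than the wild-type sums in TPM and is not to be set against them.

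Directions that turned when 1 library was left out belonged to members with small changes. Between genotypes the log2 fold change of Smarcc2 uninduced ranged from -0.26 to 0.11, and induced that of Smarcd2 from -0.14 to 0.13 and of Arid1b from -0.34 to 0.06. For induction in wild type, Smarca4 ranged from -0.12 to 0.24, Smarcc2 from -0.05 to 0.32 and Arid1a from -0.06 to 0.27. For induction in ΔCdk8 the ranges were -0.10 to 0.21 (Smarca4), -0.30 to 0.10 (Smarcb1), -0.24 to 0.19 (Smarcc1), -0.06 to 0.04 (Smarcc2), -0.18 to 0.20 (Smarcd1), -0.14 to 0.14 (Smarcd2), -0.11 to 0.08 (Smarce1), -0.60 to 0.51 (Arid1a) and -0.29 to 0.08 (Arid1b). For the interaction they were -0.40 to 0.06 (Smarcc1), -0.36 to 0.01 (Smarcc2), -0.39 to 0.03 (Smarcd1), -0.74 to 0.40 (Arid1a) and -0.19 to 0.24 (Arid1b). The fits for induction and the interaction had no block here, so leaving out 1 library split a pair and kept its partner. Within clones 8, 11 and 15 the induced to uninduced TPM ratio of Arid1a was 0.98, 0.969 and 0.909. The cause of each turn was not tested. Among the members depth limits Smarca2 most, with 40 gene reads in 1 library, and Bcl11a had 12 in another.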
